A study of Mus musculus with 36 samples.

Results

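Lung RNA of mice given Corexit 9500, an oil dispersant, was compared with lung RNA of mice given crude oil, to ask how the 2 exposures differ in the lung. The comparison held 12 of the 36 mice in the series, 6 given Corexit 9500 and 6 given oil, with 3 females and 3 males on each side. Mice were chosen by their labelled treatment, and the female and male count tables were joined on gene symbol with the table kept as a covariate. Each sex had its own table, so sex and table cannot be told apart. All 12 were wild-type C57BL/6 mice, bought at 7 weeks of age and acclimated for 1 week, then dosed on days 0, 7 and 13 and killed on day 14. The study's methods give the route as oropharyngeal aspiration of 50 µL, whereas the series description calls it intratracheal. Both preparations were given at 0.1 of the undiluted fraction. The oil preparation was the saline phase left after 1 part of MC252 crude oil had been mixed with 20 parts of Hank's balanced salt solution. Corexit 9500 was mixed with 40 parts of the same solution, did not separate and was used whole, so the amounts of oil and dispersant were not matched. RNA came from the left lung. The saline mice, 3 of each sex, give the vehicle level below.

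Corexit 9500 is a mixture of surfactants and solvents that breaks oil slicks into droplets. Crude oil brings hydrocarbons, some of which act on the aryl hydrocarbon receptor and induce genes such as Cyp1a1. Airway and alveolar epithelium under repair expresses keratins of simple epithelium, cornified envelope proteins, tight junction proteins and ligands of the epidermal growth factor receptor, and the matrix around it gains tenascin C. Interferons act through STAT and IRF proteins on a DNA element called the ISRE, which many antiviral genes carry near their start.

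The leading pattern was a set of epithelial injury genes that lay higher after Corexit 9500 than after oil in both sexes. Sprr1a, a precursor of the cornified envelope, led it, with Cldn4, Ereg, Krt8 and Krt18, and with tenascin C (Tnc) from the matrix. In the other direction stood interferon-induced genes such as Gbp2 and Gbp3, together with Cxcl9, Apod and Fos. No gene passed the adjusted threshold: by edgeR's quasi-likelihood test over both sexes, 0 of 15392 genes (0%) had an adjusted p under 0.05, and the lowest adjusted p was 0.671, for Sprr1a. Without adjustment, 193 genes (1.25%) had a p under 0.05 with a higher level after Corexit 9500 and 240 genes (1.56%) with a lower one. That sum of 433 depended on single mice, from 236 without female Corexit 9500 mouse 9 to 1028 without female oil mouse 5. By DESeq2, 4 genes had an adjusted p under 0.05: Sprr1a and Psca, which were higher, and Apod and 1700047I17Rik2, which were lower. For Psca this is a description, because the gene passed the count filter only through the Corexit 9500 mice. By DESeq2 1700047I17Rik2 was at -27.8, beyond the range of -13.5 to 9.12 of all genes in edgeR's fit, so no size is read from it. Genes are therefore described below as higher or lower, with their values by mouse. Levels are given in CPM, the counts scaled to a common library total by the trimmed mean of M values. Differences are on the log2 scale, Corexit 9500 minus oil, with their standard errors (SE).

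A library of the oil group stood apart. Female oil mouse 6 had 22.6% of its counts in mitochondrially encoded genes, against 5.61% to 11.3% in the other 11 mice. Its GC-rich minus GC-poor genes gave -2.27 on the log2 scale, against -0.79 to 0.29 in the others. Total counts in the 12 libraries ran from 17703655 to 29685060. Neither the totals, the mitochondrial share nor the GC measure passed a test of the treatments (two-sided exact permutation test within sex, p = 0.3, 0.71 and 0.265, adjusted p = 0.45, 0.71 and 0.45, smallest possible p 0.005). Female saline mouse 3, used only for the vehicle level, stood further out with 45.1% in mitochondrial genes. Values without female oil mouse 6 stand beside those that moved most when it was left out. The labelled sexes were checked with Y-linked genes: Kdm5d was at 31.0 to 35.1 CPM in the 6 males and 0 to 0.221 CPM in the 6 females, and Uty at 18.8 to 22.3 CPM and 0.0839 to 2.72 CPM.

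**Figure D1:**
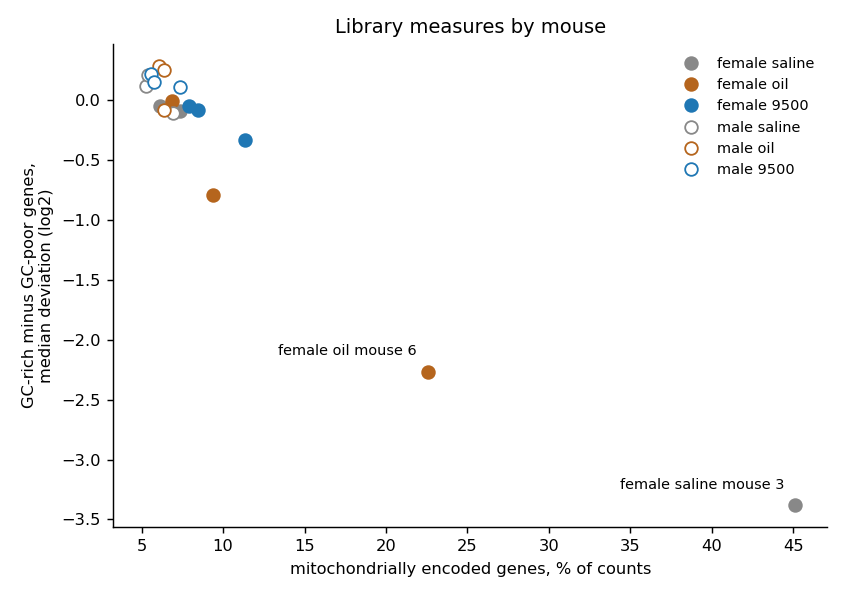
Share of counts in mitochondrially encoded genes (x axis, percent) against the difference between GC-rich and GC-poor genes (y axis, log2) for each female (filled) and male (open) mouse given saline, oil or Corexit 9500 (labelled 9500). Female oil mouse 6 (22.6%) and female saline mouse 3 (45.1%) lie far from the other mice.

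The start regions of leading genes on both sides are shown here, because they hold elements these gene families are known for. Each runs from 250 bases before to 50 bases after the annotated start on the gene's own strand, from RefSeq with build GRCm38.p6. In Sprr1a (chr3:92485832-92486131, minus strand) and Cldn4 (chr5:134946885-134947184, minus strand) the capitals mark the AP-1 element, TGACTCA or its reverse complement TGAGTCA, which Fos and Jun proteins bind. Each of the pair holds it at 2 places.
Sprr1a: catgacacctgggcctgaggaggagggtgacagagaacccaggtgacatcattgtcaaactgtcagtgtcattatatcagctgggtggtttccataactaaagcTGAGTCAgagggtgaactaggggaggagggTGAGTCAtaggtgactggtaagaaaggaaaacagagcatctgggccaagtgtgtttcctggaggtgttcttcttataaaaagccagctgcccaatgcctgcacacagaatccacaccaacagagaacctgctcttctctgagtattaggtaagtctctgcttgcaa
Cldn4: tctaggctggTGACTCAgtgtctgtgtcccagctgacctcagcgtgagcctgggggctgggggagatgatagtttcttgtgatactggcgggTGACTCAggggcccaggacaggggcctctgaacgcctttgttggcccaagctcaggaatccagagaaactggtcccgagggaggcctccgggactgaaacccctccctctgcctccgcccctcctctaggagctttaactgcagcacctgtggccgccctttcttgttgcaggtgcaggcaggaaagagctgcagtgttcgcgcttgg
Of 10 epithelial injury genes with a start region in the table, 3 (30%) held the AP-1 element, namely Sprr1a, Cldn4 and Plaur, against 5.95% of 27025 genes. The other 5 tested genes of the list had no start region there.

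In the interferon-induced genes Gbp2 (chr3:142620413-142620712), Gbp3 (chr3:142559794-142560093), Gbp5 (chr3:142496684-142496983) and Stat2 (chr10:128270248-128270547), all on the plus strand, the capitals mark the core of the ISRE on either strand, which is GAAA, then any 2 bases, then GAAA again. For Gbp3, which has 2 annotated starts, 1 region is shown.
Gbp2: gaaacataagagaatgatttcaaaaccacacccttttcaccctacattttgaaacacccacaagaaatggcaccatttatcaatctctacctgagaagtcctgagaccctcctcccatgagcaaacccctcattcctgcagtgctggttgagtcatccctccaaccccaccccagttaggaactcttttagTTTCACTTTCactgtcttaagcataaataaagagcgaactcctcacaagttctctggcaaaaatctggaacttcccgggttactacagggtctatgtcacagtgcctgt
Gbp3: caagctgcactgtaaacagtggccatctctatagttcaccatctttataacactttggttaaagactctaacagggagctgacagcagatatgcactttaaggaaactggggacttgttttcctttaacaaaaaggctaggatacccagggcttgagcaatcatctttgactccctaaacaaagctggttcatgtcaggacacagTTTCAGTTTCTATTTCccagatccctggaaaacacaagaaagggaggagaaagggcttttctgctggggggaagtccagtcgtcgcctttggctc
Gbp5: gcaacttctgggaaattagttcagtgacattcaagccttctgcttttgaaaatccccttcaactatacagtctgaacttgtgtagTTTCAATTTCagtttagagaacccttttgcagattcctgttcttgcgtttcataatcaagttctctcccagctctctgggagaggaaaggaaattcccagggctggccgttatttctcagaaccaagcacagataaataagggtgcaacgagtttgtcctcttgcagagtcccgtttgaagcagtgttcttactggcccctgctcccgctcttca
Stat2: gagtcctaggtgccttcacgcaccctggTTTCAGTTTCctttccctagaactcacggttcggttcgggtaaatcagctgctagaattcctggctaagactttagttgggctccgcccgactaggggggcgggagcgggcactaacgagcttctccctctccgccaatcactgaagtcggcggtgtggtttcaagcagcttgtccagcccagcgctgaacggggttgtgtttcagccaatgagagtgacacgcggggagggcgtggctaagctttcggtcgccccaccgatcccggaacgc
Of 20 interferon-induced genes with a start region in the table, 15 (75%) held this core, against 3.99% of 27025 genes and 0 of the 10 epithelial injury genes. The AP-1 element was in 4 of the 20 (20%). These matches describe letters and say nothing of whether a factor was bound in these lungs.

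Sprr1a had the largest difference of the epithelial injury list. In females it stood at 78.9, 7.52 and 35.2 CPM in Corexit 9500 mice 7, 8 and 9 and at 1.22, 1.72 and 1.2 CPM in oil mice 4, 5 and 6, an order of mice kept throughout. In males the Corexit 9500 mice had 18.9, 10.8 and 3.09 CPM and the oil mice 2.11, 0.618 and 1.1 CPM. Every Corexit 9500 mouse lay above every oil mouse of its sex, and the saline mice ran from 1.43 to 2.58 CPM in females and from 1.21 to 1.37 CPM in males, near the oil mice. The difference was 3.99 (SE 0.66) over both sexes, 4.88 (SE 0.83) in females and 3.09 (SE 0.65) in males. Its adjusted p was 0.671 in edgeR's quasi-likelihood test of the 12 mice, 2.55e-09 with DESeq2, and 0.00016 with edgeR when all 6 groups of the series shared 1 estimate of the spread.

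Psca, a small protein anchored to the surface of epithelial cells, was scarce. It reached 2.01, 0.752 and 2.73 CPM in female and 1.46, 0.736 and 0.665 CPM in male Corexit 9500 mice. The oil mice had 0, 0.0442 and 0.378 CPM in females and 0.234, 0.0515 and 0.194 CPM in males. The groups did not overlap in either sex, and the difference was 3.13 (SE 0.71). These values are a description: fewer than 3 oil mice reached the filter's level of 0.46 CPM, so Psca passed the count filter only through the group in which it was high. Cldn4, a claudin of tight junctions, was at 6.03, 5.97 and 7.97 CPM in female Corexit 9500 mice against 2.4, 3.45 and 1.07 CPM in female oil mice. In males it was at 7.91, 4.35 and 4.36 CPM against 3.51, 1.8 and 2.59 CPM. Cldn4 too did not overlap in either sex, with a difference of 1.30 (SE 0.30). Ereg, which encodes the growth factor epiregulin, differed by 1.82 (SE 0.47), without overlap in females (1.41 to 3.69 against 0.436 to 0.756 CPM) and with overlap in males (0.399 to 1.86 against 0.187 to 0.566 CPM). In the female fit Ereg passed the count filter only through the Corexit 9500 mice.

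The keratins of simple epithelium lay at far higher levels. Krt8 was at 251, 139 and 256 CPM in female Corexit 9500 mice and at 112, 141 and 58.1 CPM in female oil mice, so that Corexit 9500 mouse 8 fell just below oil mouse 5. In males Krt8 was at 209, 165 and 173 CPM against 117, 128 and 117 CPM, with no overlap. Krt18, with which Krt8 forms filaments, was at 110.1, 87.5 and 86.8 CPM in male Corexit 9500 mice against 64.4, 65.3 and 59.5 CPM in male oil mice, again without overlap. Over both sexes Krt8 differed by 0.83 (SE 0.22) and Krt18 by 0.83 (SE 0.23). In males DESeq2 gave adjusted p-values of 0.00186 for Krt8 and 0.00753 for Krt18, where edgeR's quasi-likelihood test gave 0.606 and 0.628.

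**Figure D2:**
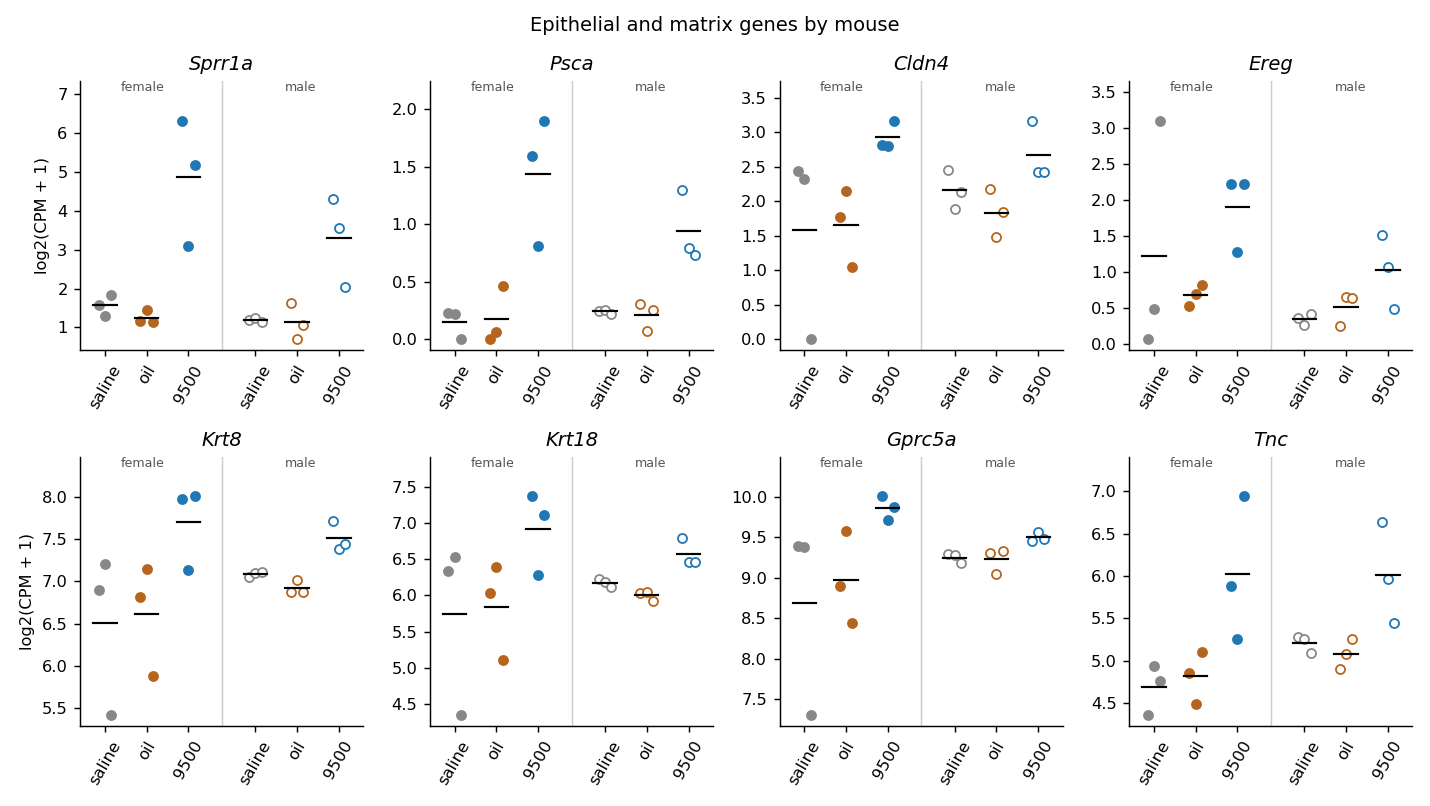
Levels of 8 epithelial and matrix genes by mouse, as log2(CPM + 1) on the y axis of each panel, for female (filled) and male (open) mice given saline, oil or Corexit 9500 (labelled 9500). Bars are means of 3 mice. Sprr1a, Psca, Cldn4, Gprc5a and Tnc lie higher in each Corexit 9500 mouse than in each oil mouse of the same sex.

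Of 21 genes listed for airway epithelial injury, 15 passed the count filter, and without Psca the list held 14. All 14 were higher after Corexit 9500, except that Krt5 was lower, by -0.14, once GC content and gene length were offset and, by -0.10, without the sex term. Krt5 was also lower without male oil mouse 4, male oil mouse 6 or male Corexit 9500 mouse 9. The median of the 14 was 0.69, with a range from 0.14 to 3.99, whereas of all 15392 genes 7662 were higher and 7730 lower. At an unadjusted p under 0.05, 9 of the 14 were higher and 0 lower, against 1.25% and 1.56% of all genes. This list, like those below, was chosen with earlier results of these data known, so such shares are descriptions. Without female oil mouse 6 the median was 0.60 and 8 of the 14 had such a p, against 1.25% of all genes in that fit. In each sex, 12 of the genes reached the filter's level in both treatments. Their median was 0.97 in females and 0.53 in males, with 6 and 7 of the 12 higher at a p under 0.05. Of all genes 2% were higher and 2.15% lower at that p in females, and 1.32% higher and 3.05% lower in males. Summed over the 19 listed genes present for both sexes, levels overlapped in females, at 664 to 1316 against 357 to 717 CPM. In males they did not overlap, at 726 to 958 against 599 to 652 CPM.

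The rest of the list is given by role. Among keratins, Krt19 differed by 0.63 and the basal cell keratin Krt5 by 0.17, the latter with opposite signs in females (-0.72) and males (1.17). Trp63, a transcription factor of basal cells, differed by 0.39. Among ligands of the epidermal growth factor receptor, Areg (amphiregulin) differed by 0.75 and Hbegf by 0.46. Sfn, a 14-3-3 protein of epithelium, differed by 0.99 and Lgals3 (galectin 3) by 0.55. Plaur, the urokinase receptor, differed by 0.41 and Itgb6, an integrin chain of epithelium, by 0.14. Unadjusted p-values of Krt5, Trp63, Lgals3, Plaur and Itgb6 were above 0.05. Some of these values rested on single mice. Without female Corexit 9500 mouse 7 the difference was 0.12 for Trp63, 0.32 for Lgals3, 0.31 for Hbegf and 0.05 for Itgb6, and Itgb6 was at 0.22 without male Corexit 9500 mouse 9. Plaur was at 0.14 without female oil mouse 6 and at 0.85 without female oil mouse 5.

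Against saline, the median of the 14 genes was 0.69 for Corexit 9500 and -0.10 for oil, and 0.53 and -0.07 without the pair of libraries that stood apart. Both values share the saline mice. The summed markers of 2 epithelial cell types overlapped between the treatments. Those of alveolar type 2 cells, which make surfactant, summed to 18847 to 21131 against 17369.6 to 25690.3 CPM in females and 19136 to 21649 against 18807 to 20225 CPM in males. Those of club cells summed to 13444 to 29604 against 22370.4 to 27865 CPM and 15391 to 20773 against 16184 to 19274 CPM. The alveolar type 1 markers overlapped in females, at 3786 to 4039 against 3744 to 4821 CPM, and did not overlap in males, at 4542 to 4741 against 4046 to 4387 CPM. In males 7 of the 7 type 1 genes were higher after Corexit 9500, 2 of them at a p under 0.05, against 1.32% of all genes, and their part in the differences above was not tested. In whole lung, more cells of a type and more RNA per cell cannot be told apart.

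Genes outside that list also separated the groups. In all, 35 genes (0.227%) were higher and 21 genes (0.136%) lower in every Corexit 9500 mouse than in every oil mouse of the same sex. Of the higher ones, 31 passed the count filter through the oil mice by themselves. Groups also separated in opposite directions in the sexes, for 44 genes (0.286%) and 46 genes (0.299%), so non-overlap alone sets no gene apart. Several genes below were named because of it. Tnc, a matrix glycoprotein laid down in wound repair, was at 58.2, 37.3 and 122 CPM in female Corexit 9500 mice and at 27.9, 21.5 and 33.5 CPM in female oil mice. In males Tnc was at 98.8, 61.3 and 42.6 CPM against 28.9, 32.8 and 37.3 CPM. The difference was 1.22 (SE 0.28), and saline mice had 19.5 to 29.7 CPM in females and 33.2 to 37.8 CPM in males, close to the oil mice.

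Gprc5a, an orphan receptor abundant in lung epithelium, stood at 1028, 841 and 940.5 CPM against 475, 767 and 346 CPM in females and at 700.1, 759 and 714 CPM against 635, 528 and 644 CPM in males, a difference of 0.55 (SE 0.19). It separated the groups in each sex. Rin1, a Ras and Rab5 interactor, differed by 0.85 (SE 0.23) and Nnat (neuronatin) by 0.66 (SE 0.18). Map3k9, a kinase upstream of JNK, differed by 0.55, Hbs1l, a ribosome rescue factor, by 0.53, and Hmgn1, a nucleosome-binding protein, by 0.38. Once GC and length were offset, Rin1 was at 0.48 and Nnat at 0.31, and by voom Map3k9 was at 0.27. Msln (mesothelin) differed by 0.63 (SE 0.20), with no overlap in males and overlap in females.

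Proliferation genes were on the higher side, more so by their medians in females. Of 44 mitosis genes tested, 43 were higher and 1 lower, with a median of 0.46, and 12 had an unadjusted p under 0.05, all higher, against 1.25% of all genes. Without female oil mouse 6 that number was 7, against 1.25% of all genes, and the median 0.55, and without female Corexit 9500 mouse 9 the median was 0.26. The median was 0.67 in females and 0.25 in males, a difference that was not tested. The summed level of the 44 genes overlapped in both sexes, at 310 to 716 against 252 to 375 CPM in females and 276 to 452 against 260 to 428 CPM in males. Ccnb2, a mitotic cyclin, was at 12.8, 4.6 and 12.5 CPM against 3.97, 4.86 and 3.78 CPM in females and at 7.45, 7.61 and 5.02 CPM against 4.73, 2.68 and 5.15 CPM in males, so the groups overlapped in each sex. Cdc20, an activator of the anaphase-promoting complex, differed by 0.92, Kif18b, a mitotic kinesin, by 0.87 and Cep55, a protein of abscission, by 0.66. Mki67 and Top2a, used as markers of cycling cells, differed by 0.41 (SE 0.27) and 0.44 (SE 0.28), and without female Corexit 9500 mouse 9 by 0.16 and 0.24. Against saline the mitosis median was 0.83 for Corexit 9500 and 0.31 for oil.

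Among 46 genes of DNA replication, 40 were higher and 6 lower, with medians of 0.67 in females and 0.0034 in males, and 3 had an unadjusted p under 0.05, all higher, against 1.25% of all genes. Over both sexes the median was 0.33, and 0.21 without female Corexit 9500 mouse 9. Cdc6, which loads the replicative helicase, stood at 10.3, 3.18 and 14.8 CPM against 1.79, 3.27 and 1.2 CPM in females and differed by 1.29 (SE 0.49) over both sexes. Corexit 9500 mouse 8 again lay among the oil mice. Clspn, a checkpoint adaptor, differed by 0.85, Rfc5, of the clamp loader, by 0.50 and Gins2, of the helicase complex, by 1.06, or 0.57 without female Corexit 9500 mouse 7. The 31 DNA repair genes had a median of 0.04, or 0.09 without female oil mouse 6. Of 22 p53 targets 11 were higher and 11 lower, and Cdkn1a, a cell cycle inhibitor, differed by 0.13 (SE 0.26), and by -0.03 without female oil mouse 4 and 0.36 without male oil mouse 6.

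**Figure D3:**
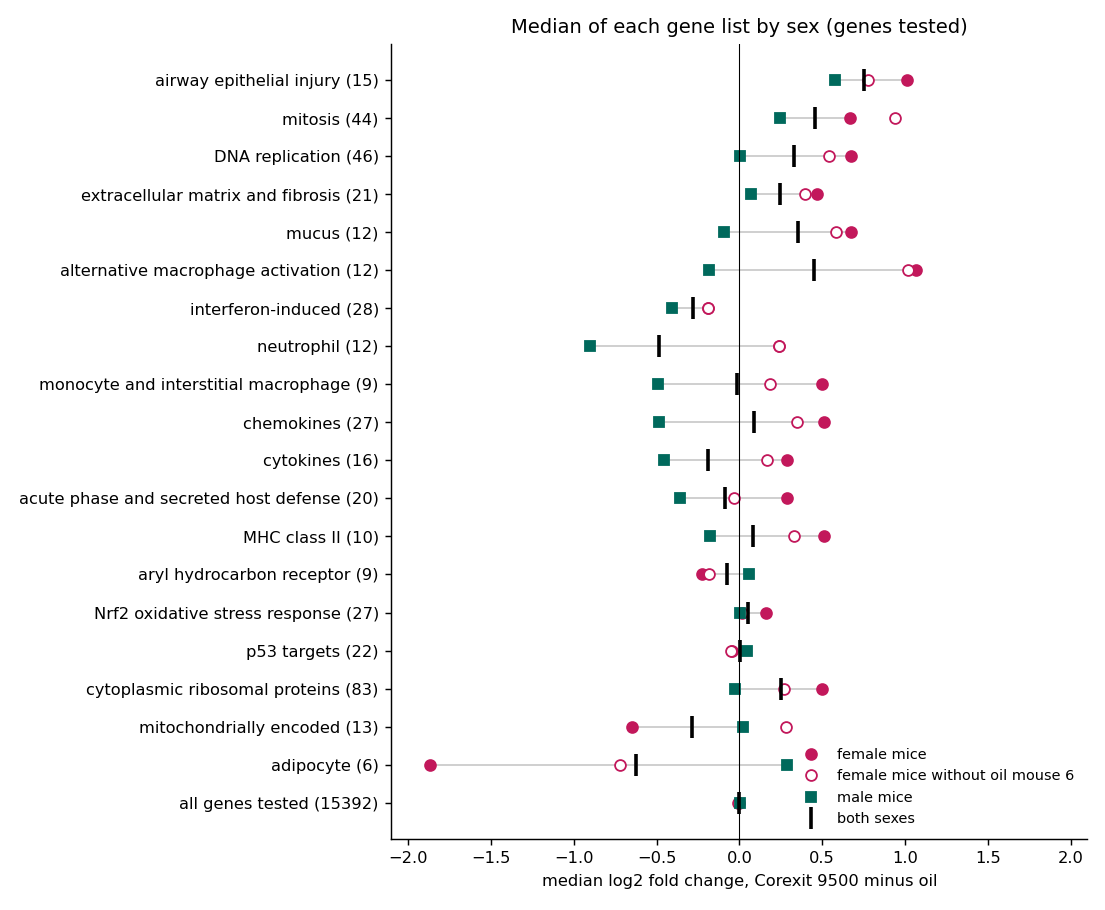
Median log2 fold change, Corexit 9500 minus oil, of all tested members of each gene list (x axis) in female mice (filled circle), female mice without oil mouse 6 (open circle), male mice (square) and both sexes (bar), with the number of genes tested in brackets. The 15 airway epithelial injury genes, Psca included, have medians of 1.01 in females and 0.58 in males, interferon-induced genes -0.19 and -0.41, and neutrophil genes 0.24 and -0.90.

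Interferon-induced genes lay on the other side. Of 28 tested, 26 were lower after Corexit 9500 and 2 higher, with a median of -0.28. At an unadjusted p under 0.05, 6 of the 28 were lower and 0 higher, against 1.56% and 1.25% of all genes, and 10 were lower without female oil mouse 6, against 1.26% of all genes in that fit. In males 28 of 28 were lower, 17 of them at a p under 0.05, where 3.05% of all genes were lower, and the median was -0.41. In females 18 were lower and 10 higher, 2 of the lower at a p under 0.05, against 2.15% of all genes, and the median was -0.19. The summed level of the list did not overlap in either sex, at 1126 to 1288 against 1323 to 1488 CPM in females and 782 to 885 against 1023 to 1192 CPM in males. Female saline mice, at 1186 to 2013 CPM, overlapped both female groups, and male saline mice, at 943 to 1012 CPM, lay between the male groups.

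Gbp3, a guanylate-binding protein induced by interferon gamma, was at 46, 47 and 41.8 CPM in female Corexit 9500 mice against 63.7, 62.2 and 77.3 CPM in female oil mice. In males it was at 29.3, 22.3 and 26.3 CPM against 41.5, 30.6 and 29.8 CPM. It separated the groups in both sexes, which is a reason it was named, with a difference of -0.48 (SE 0.13). Stat2, a transcription factor of the type I interferon response, ran from 52.1 to 70.0 CPM against 74.1 to 81.1 CPM in females and from 75.7 to 81.1 CPM against 93.9 to 97.5 CPM in males. It too did not overlap, though the difference was small, at -0.29 (SE 0.10). Gbp2 was at 100.4, 70.1 and 66.2 CPM against 144, 114 and 174 CPM in females and at 65.5, 56.4 and 62.2 CPM against 78.7, 78.9 and 64.6 CPM in males, a difference of -0.56 (SE 0.17) with overlap in males. Gbp5 differed by -0.40 (SE 0.15). The Gbp genes are close relatives whose reads the quantification may have split, so their separate values are uncertain.

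Cxcl9, a chemokine that interferon gamma induces and that draws T cells, differed most in males. It was at 0.993, 0.771 and 1.2 CPM in male Corexit 9500 mice, at 5.24, 3.24 and 3.86 CPM in male oil mice and at 0.642, 0.88 and 0.625 CPM in male saline mice, so that the oil mice were the ones set apart. In females the groups overlapped, at 4.18, 2.39 and 4.62 CPM against 2.71, 9.1 and 8.57 CPM. The difference was -1.44 (SE 0.36) over both sexes and -2.06 (SE 0.30) in males. Mx1, an antiviral GTPase, was at 4.68, 3.47 and 3.16 CPM against 8.38, 9.22 and 8.59 CPM in males, a difference of -1.22 (SE 0.19), and differed by 0.06 (SE 0.52) in females. By DESeq2 both had an adjusted p under 0.05 in males (1.44e-05 for Cxcl9 and 0.000208 for Mx1), while edgeR's quasi-likelihood test gave both an adjusted p of 0.434.

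Against saline, the median of the interferon-induced list was -0.19 for Corexit 9500 and 0.09 for oil, and -0.14 and 0.13 without the pair of libraries that stood apart. Most lists of immune cell markers had medians below 0 in males. The 7 plasma cell markers had a male median of 0.14, the 1 eosinophil marker tested was at 0.15, and the 5 mast cell and basophil markers had a male median of -0.003. The 10 T cell markers had medians of 0.14 in females and -0.16 in males, where 9 of 10 were lower, and their summed level overlapped, at 119 to 193 against 104 to 158 CPM in females and 79.3 to 112 against 103 to 114 CPM in males. Of the 7 NK cell markers, 6 reached the filter's level in both treatments of males, with a male median of -0.27 and 6 of 6 lower. The summed level of all 7 overlapped in males, at 38.6 to 53.8 against 48.8 to 63.8 CPM. The male medians of neutrophil and monocyte markers were also below 0. The part of these cells in the interferon result was not tested.

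Apod, a lipocalin that carries small lipids, was at 8.58, 6.81 and 7.09 CPM against 10.3, 12.5 and 21.7 CPM in females and at 5.09, 4.14 and 6.92 CPM against 14.8, 11.6 and 14.3 CPM in males. The groups did not overlap in either sex, and the difference was -1.15 (SE 0.21), with male saline mice at 6.8 to 7.84 CPM. Fos, a subunit of AP-1, was at 14.6, 15.6 and 13.8 CPM against 38.4, 27.3 and 16.9 CPM in females and at 16.5, 15.8 and 17.6 CPM against 26.3, 19.3 and 24.8 CPM in males. Fos did not overlap either and differed by -0.70 (SE 0.19), while male saline mice had 20.3 to 49.9 CPM. Among 20 immediate early genes, the class Fos belongs to, 11 were higher and 9 lower.

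**Figure D4:**
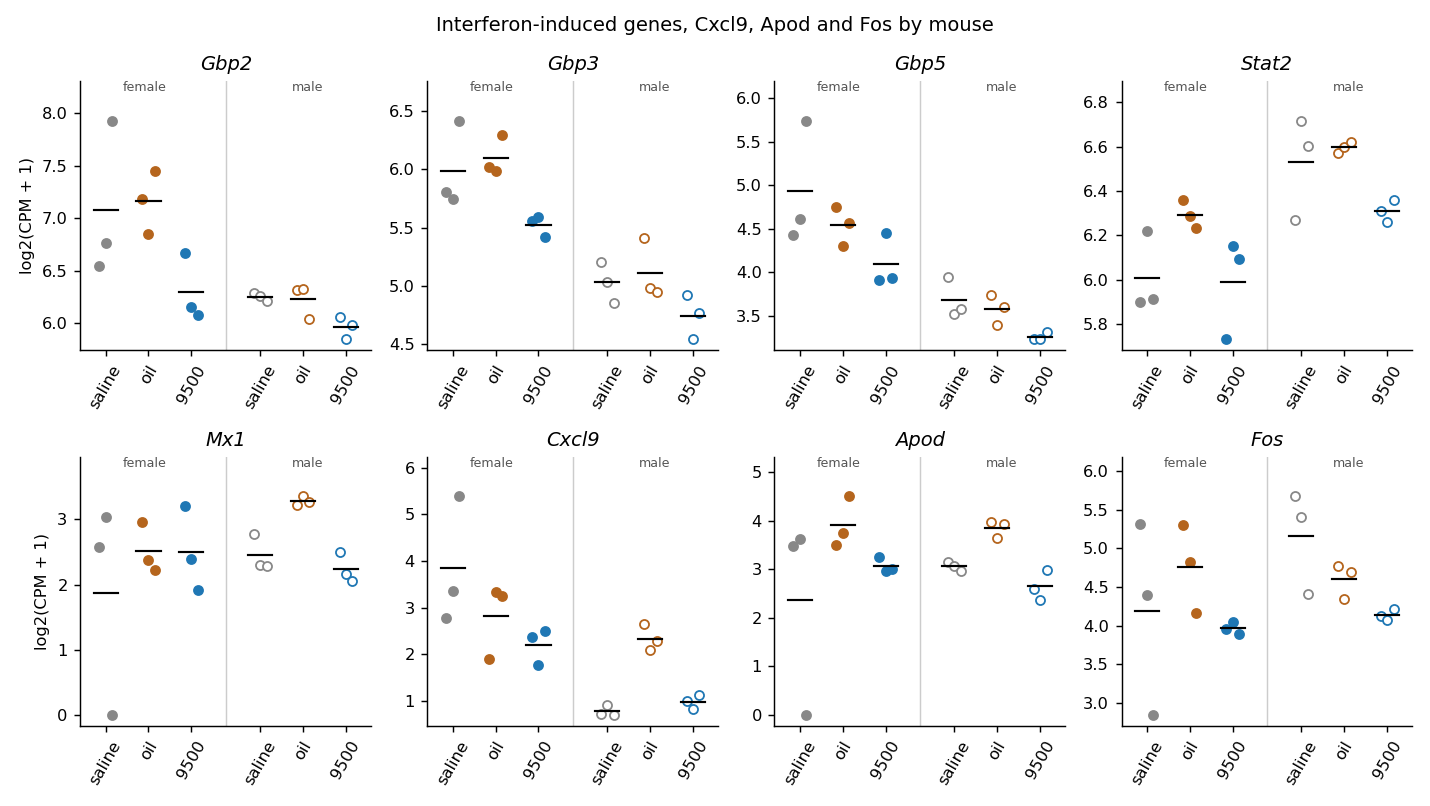
Levels of 8 genes by mouse, as log2(CPM + 1) on the y axis of each panel, for female (filled) and male (open) mice given saline, oil or Corexit 9500 (labelled 9500). Bars are means of 3 mice. Gbp3, Stat2, Apod and Fos do not overlap between oil and Corexit 9500 in either sex, and Mx1 and Cxcl9 do not overlap in males.

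The other named genes that lay lower without overlap had smaller differences, apart from Ccdc67, which serves centriole amplification in ciliated cells and differed by -0.97 (SE 0.41). Krt79 differed by -0.42, Trbc1, a constant region of the T cell receptor, by -0.60, and the helicase gene Ddx19b by -0.24. Stx19, a syntaxin, differed by -0.62 and Pmaip1 (Noxa, which promotes cell death) by -0.42, and without female oil mouse 6 by -0.39 and -0.21. The unadjusted p of Ddx19b was above 0.05.

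Neutrophil and monocyte genes had medians of opposite sign in the sexes. Of the neutrophil genes, those that reached the filter's level in both treatments had a median of 0.15 in females (9 genes) and -0.93 in males (10 genes), where 10 of 10 were lower, 5 of them at a p under 0.05, against 3.05% of all genes. Over both sexes the median of all 12 genes tested was -0.48, and -0.06 without male oil mouse 6. Their summed level overlapped in males, at 197 to 426 against 383 to 1079 CPM. The 9 genes of monocytes and interstitial macrophages had medians of 0.50 in females (0.18 without oil mouse 6) and -0.49 in males. Their summed level did not overlap in males, at 367 to 505 against 572 to 788 CPM, and 5 of the 9 were lower at a p under 0.05. The alveolar macrophage list had medians of -0.13 in females (0.14 without oil mouse 6) and -0.22 in males, and the dendritic cell list -0.04 (0.01) and -0.28, so the female sign of both turned with that mouse.

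Cd177, a surface glycoprotein of neutrophils, had the lowest p in males, at 7.29, 9.5 and 8.68 CPM against 16.8, 28.1 and 27 CPM, a difference of -1.51 (SE 0.20). In females it differed by -0.20 (SE 0.40). Ly6i, of the Ly6 family of surface proteins, was at 1.8, 1.79 and 0.599 CPM against 8.57, 8.24 and 5.83 CPM in males, a difference of -2.44 (SE 0.39), and differed by 0.01 (SE 0.68) in females. Both separated the male groups and overlapped in females. Mmp9, a gelatinase of neutrophils, was at 38, 39.8 and 21.1 CPM against 64.3, 51 and 113 CPM in males, with saline mice at 30.4 to 34.4 CPM. Ccr2, the chemokine receptor of recruited monocytes, was at 64.9, 52.3 and 38.5 CPM against 63.8, 122 and 162 CPM in males, with overlap. Emr1, which encodes the macrophage marker F4/80, differed by -0.65 (SE 0.15) in males, and the calgranulin S100a8 by -0.98 (SE 0.46). Over both sexes S100a8 differed by -0.71, and by -0.44 without male oil mouse 6 and -1.08 without female Corexit 9500 mouse 7. By edgeR's quasi-likelihood test 0 of 15250 genes (0%) had an adjusted p under 0.05 in males and 0 of 14817 (0%) in females. By DESeq2, 48 genes did in males, 10 higher and 38 lower, with Cd177 and Ly6i among the lower, and 12 did in females.

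Lists of secreted signals had medians of opposite sign as well. Over the members that reached the filter's level in both treatments of a sex, 18 chemokines had a median of 0.42 in females and 21 one of -0.43 in males. For cytokines it was 0.27 (10 genes) and -0.48 (12 genes), and for acute phase and defence genes 0.28 (19 genes) and -0.26 (19 genes). Without oil mouse 6 the female medians of all members tested were 0.35, 0.17 and -0.04, the last then of the same sign as in males. In males 5, 5 and 6 of these genes were lower at a p under 0.05, against 3.05% of all genes. Il1a, an alarmin of epithelium and macrophages, differed by -0.74 (SE 0.24) over both sexes, without overlap in males (3.2 to 3.83 against 4.99 to 6.44 CPM). Il1b differed by -0.32 (SE 0.42), Tnf by 0.19 (SE 0.37) and the neutrophil chemokine Cxcl1 by 0.38 (SE 0.40), and Il6 did not pass the count filter. Of these Tnf was at -0.05 without female Corexit 9500 mouse 9, and below 0 also without female oil mouse 6. Cxcl1 was at 0.20 without female Corexit 9500 mouse 7. Without that mouse Il1b was at -0.71, and without male oil mouse 6 at -0.05. Csf1, a macrophage growth factor, differed by -0.23 (SE 0.12). The B cell chemokine Cxcl13 differed by -1.56 and by -0.11 without female oil mouse 6, which had 91.9 CPM against 2.20 to 5.57 CPM in the other oil mice.

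Among defence proteins, the lysozymes Lyz2 and Lyz1 differed by -0.39 (SE 0.14) and -0.31 (SE 0.15), lactoferrin (Ltf) by -0.75 (SE 0.32) and complement C3 by -0.31 (SE 0.15). Ltf separated the female groups only, at 14.2, 30.1 and 25.7 CPM against 35.5, 87.4 and 73.3 CPM. The 10 MHC class II genes had medians of 0.51 in females (0.33 without oil mouse 6) and -0.18 in males.

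Macrophage activation genes were on the higher side in females but not in males, a difference that was not tested for the list as a whole. The genes of alternative activation that reached the filter's level in both treatments had medians of 1.04 in females (11 genes) and -0.18 in males (12 genes). In females 6 of the 11 were higher at a p under 0.05, against 2% of all genes, and without oil mouse 6 the median of all members tested was 1.02. Mmp12, a macrophage elastase, was at 60.7, 15 and 29 CPM against 8.42, 6.49 and 7.69 CPM in females and at 13.3, 15 and 7.19 CPM against 18.4, 13.6 and 8.85 CPM in males. Chil3, a chitinase-like protein of macrophages, was at 1018, 454 and 859.8 CPM against 359.6, 415 and 369.9 CPM in females and differed by -0.16 (SE 0.11) in males. Both separated the female groups and overlapped in males. Retnla, another product of such macrophages, was at 2518, 136 and 349.7 CPM against 112, 139.9 and 169 CPM in females, with mouse 7 far above the rest and mouse 8 among the oil mice. Mrc1, the mannose receptor, differed by -0.27 (SE 0.18) over both sexes and by -0.08 without female oil mouse 6. Over both sexes the median of the list was 0.45, and 0.06 without female Corexit 9500 mouse 7. The interaction of sex with treatment, male minus female, was -2.42 for Mmp12, -1.18 for Chil3 and -3.42 for Retnla, and edgeR's quasi-likelihood test put the adjusted p of each at 0.767. Without female Corexit 9500 mouse 7 the interaction of Retnla was -1.38.

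Without Ahrr, described below, 2 of 8 aryl hydrocarbon receptor genes were higher and 6 lower after Corexit 9500, with a median of -0.09. With Ahrr the median of the 9 was -0.08, or 0.01 without female oil mouse 4. In each sex 8 genes of the list reached the filter's level in both treatments. In females 7 of the 8 were lower (median -0.24) and in males 7 were higher (median 0.05), a difference that was not tested. Cyp1a1, the classic target, was at 1.52, 3.85 and 4.24 CPM against 3.97, 6.45 and 5.11 CPM in females and at 14, 8.38 and 13 CPM against 15, 14.1 and 21.1 CPM in males. Its difference was -0.59 (SE 0.25), and it was the 1 member with an unadjusted p under 0.05, against 1.56% of all genes. Male saline mice had 19.4 to 26.4 CPM of Cyp1a1, with 1 male oil mouse inside that range and the other male oil mice below it. Cyp1b1 differed by -0.24 (SE 0.28) and, without female oil mouse 6, by 0.06. Tiparp differed by -0.29 (SE 0.23) and the quinone reductase Nqo1 by 0.24 (SE 0.27), and without that mouse by -0.01 and 0.08. The receptor's repressor Ahrr, which like Psca passed the count filter only through the Corexit 9500 mice, differed by 0.80 (SE 0.64), and by 0.46 without female Corexit 9500 mouse 7. The 27 genes of the Nrf2 response to oxidative stress had a median of 0.05, or 0.0076 without female oil mouse 6. The 26 genes of xenobiotic metabolism had one of -0.08, or -0.06 without that mouse. In females 19 of the 26 were lower (median -0.20), 3 of them at a p under 0.05, against 2.15% of all genes, and in males 23 were higher (median 0.09), a difference that was not tested.

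Matrix and mucus lists had higher medians in females than in males, a difference that was not tested. Of 21 matrix and fibrosis genes, 16 were higher and 5 lower, with medians of 0.47 in females and 0.07 in males. The pair with an unadjusted p under 0.05, both higher, against 1.25% of all genes, was Tnc and the membrane-bound protease Mmp14 (0.75, SE 0.33, and 0.50 without female oil mouse 6). Mmp2, a gelatinase, differed by 0.40 (0.27 without that mouse) and fibrillin (Fbn1) by 0.27. The 12 mucus genes, of which Foxa3 passed the count filter only through Corexit 9500 mice, had medians of 0.67 and -0.10, and the other 11 a median over both sexes of 0.30, or 0.09 without female oil mouse 6. Muc5ac, a gel-forming mucin, was at 32.6, 38.2 and 29.2 CPM against 8.73, 20.1 and 9.33 CPM in females, without overlap. In males it was at 12.2, 48.7 and 15.9 CPM against 84.2, 11.9 and 9.01 CPM, where 1 oil mouse held the highest level. Muc5b differed by 0.48 (SE 0.31), or 0.29 without female Corexit 9500 mouse 8, and the membrane mucin Muc1 by 0.30 (SE 0.18), or 0.18 without female Corexit 9500 mouse 9.

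Some lists moved with the library that stood apart. The 13 mitochondrially encoded genes had a median of -0.29 over the 12 mice and 0.19 without female oil mouse 6, with mt-Atp6 at -0.79 and -0.17 and mt-Co3 at -0.75 and -0.50. The 6 adipocyte genes had a median of -0.63 and of -0.08 without it, and Adipoq (adiponectin) was at 71.5 CPM in that mouse against 0.937 to 7.64 CPM in the other oil mice. The 83 cytoplasmic ribosomal protein genes had a median of 0.25 and of 0.13 without it, but of -0.04 without female Corexit 9500 mouse 7.

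The female and male comparisons shared no mice, so their differences can be set side by side. Across 13355 genes with a mean log2 CPM of at least 1, they had a Pearson correlation of 0.0097 and a Spearman correlation of 0.027, and 51.0% had the same sign. Without female oil mouse 6 the correlations were -0.04 and -0.02 over 13366 genes, and 49.3% had the same sign. These are descriptions across genes, which are not independent replicates, and each sex's values share that sex's libraries. Of 37 such genes with a p under 0.05 in each sex, 18 had the same sign, 12 of them higher and 6 lower after Corexit 9500. Without female oil mouse 6 there were 25 such genes, 13 of them with the same sign, 8 higher and 5 lower. The 12 higher genes over all mice were Sprr1a, Cldn4, Krt8, Krt18, Sfn, Gprc5a, Rin1, Tnc, Ccnb2, S100a14, Shisa4 and Pcyox1l, and the 6 lower ones were Apod, Fos, Gbp2, Gbp3, Gm14698 and Gm5931. Without that mouse the female p of Krt8, Krt18, Gprc5a, Ccnb2, Shisa4, Apod, Gm14698 and Gm5931 was above 0.05. Of these, Ccnb2 went from 1.26 to 1.19 in females and Krt8 from 1.06 to 0.78. Apod went from -0.98 to -0.60 and Gm5931 from -5.16 to -2.68. S100a14, Shisa4, Pcyox1l, Gm14698 and Gm5931 are named here after their values were seen.

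**Figure D5:**
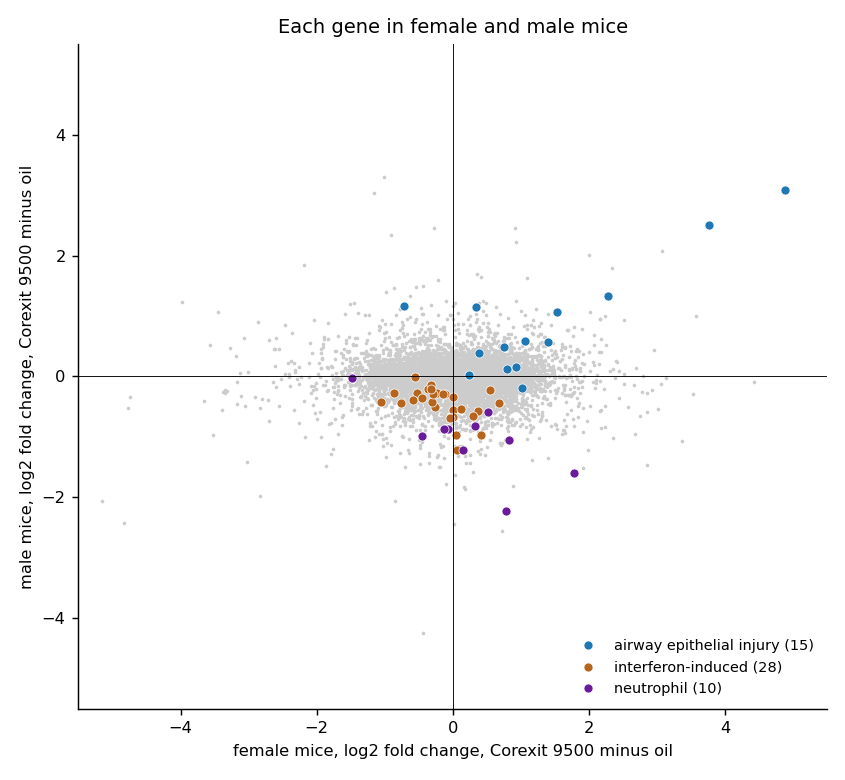
Log2 fold change, Corexit 9500 minus oil, of each gene tested in both sexes, in female mice (x axis) and male mice (y axis), with 3 gene lists coloured and the number of their genes in brackets. Of 14702 genes, 5 lie outside the axes, which end at 5.5. The points at the upper right are Sprr1a (4.88 and 3.09) and Psca (3.77 and 2.50), and the neutrophil genes lie at or below 0 on the male axis.

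Tests of the interaction of sex with treatment found 0 of 15392 genes (0%) with an adjusted p under 0.05 by edgeR's quasi-likelihood test, 854 at an unadjusted p under 0.05, and 11 with an adjusted p under 0.05 by DESeq2. Some of the 11 had values too large to read as sizes, such as 26.9 for Gm28439 and 23.7 for Idh3a. Others did not, such as -1.83 for Rpl5 and -0.95 for Sp2. The lowest p among the named genes belonged to Rpl5, a ribosomal protein gene whose processed copies may share its reads. Rpl5 was at 204, 205 and 194 CPM against 38.6, 66.1 and 90.0 CPM in females and at 26.7, 32.9 and 35.5 CPM against 41.5, 33 and 35.5 CPM in males. The female saline mice, at 214, 38.3 and 194 CPM, spanned both female groups. Myc, the growth transcription factor, was at 47, 40.6 and 37.6 CPM against 18.1, 22.8 and 24.5 CPM in females and overlapped in males, with an interaction of -1.07. Sp2 and Bcl3, further transcriptional regulators, had interactions of -0.95 and -1.24. Aplp2, of the amyloid precursor family, went the other way, at 258, 384 and 337 CPM against 934, 615 and 1042 CPM in females, with an interaction of 1.36. Eif2b3, a translation initiation factor subunit, had one of 1.12, and Msantd4 and Atxn1l were at 0 CPM in several female mice, so that no size is given.

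Further genes stood out by p in 1 sex. In females Polr2a, the large subunit of RNA polymerase II, differed by 1.36 and the anion exchanger Slc26a4 by 2.67. Lower in females were the adaptor gene Skap2 (-1.90), the phosphatase gene Ppp1cb (-2.25), Fubp1 (-1.33) and Igfbp3 (-1.02), which binds insulin-like growth factors. The same genes differed in males by 0.01, -0.96, -0.15, 0.15, -0.06 and 0.01, in that order. In males the growth factor gene Gdnf differed by 0.68, Nrbp2 by 3.30 and Polr1a, the large subunit of RNA polymerase I, by 0.65, against 0.29, -1.02 and 0.03 in females.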

How the data were processed

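RNA sequencing of the left lung was deposited as 1 table for 18120 gene rows of female mice and 1 for 18295 gene rows of male mice. The deposited values were expected counts, which the authors estimated per transcript with Salmon (version not given in the sources used here) against GRCm38 transcripts, combined with tximport and gave as whole numbers. The lowest row sum in the tables was 10, and no rounding was left to do. The 4 repeated names per table, with 0.0103% and 0.0128% of the counts, were left out. Of the symbols, 17716 were in both tables and 400 and 575 in 1 only, and 95.4% of the shared ones matched GENCODE M21. Genes with close relatives or processed copies may share reads.

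Mice were grouped by their labelled treatment and sex, with 3 mice a group. The labels name separate mice, and the closest pair of libraries differed far beyond counting noise. Counts were filtered with filterByExpr, scaled by the trimmed mean of M values and tested with edgeR 4.0.16 (R 4.3.3) by the quasi-likelihood test, with sex as covariate over both sexes, in each sex alone and for the interaction. P-values were adjusted over all genes by Benjamini-Hochberg. Totals of 17703655 to 29685060 counts and the 3 mice a group both limit the precision. The alternatives were DESeq2 1.42.0, limma 3.58.1 voom with quality weights, other scalings and filters, GC and length offsets, all 6 groups in 1 fit, a fit with sex left out, and leaving out each mouse in turn. The fit without female oil mouse 6 and female saline mouse 3 against saline, list counts without female oil mouse 6, and list counts over members that 3 oil mice, or in 1 sex the mice of both treatments, carry past the count filter, were added after seeing the data. The scripts were tested on simulated data.

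The comparison and the gene lists were chosen with earlier results of these data known. Named genes were those without overlap in either sex, up to 10 per direction by p with a mean log2 CPM of at least 1, up to 4 per list discussed by p, up to 5 per direction in each sex and for the interaction, and a fixed set that included Cyp1a1, Sprr1a, Mmp12 and Muc5ac. The airway epithelial injury list was given whole. Some genes that the rule selects are not reported here.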

Additional observations from a re-analysis of the deposited data

Results flagged for a closer look

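For 2 genes with a low p for the interaction of sex with treatment, every Corexit 9500 mouse lay on 1 side of every oil mouse in females and on the other side in males. F10, which encodes coagulation factor X, was at 22.4, 8.71 and 15.9 CPM in female Corexit 9500 mice against 6.98, 8.57 and 6.30 CPM in female oil mice. In males it was at 13.3, 12.3 and 8.95 CPM against 17.6, 15.7 and 23.2 CPM. Its interaction, male minus female, was -1.81. Fam185a was at 2.01, 3.27 and 2.77 CPM against 6.24, 4.95 and 8.57 CPM in females and at 4.65, 4.31 and 4.06 CPM against 2.48, 3.76 and 3.63 CPM in males, with an interaction of 1.69. By edgeR's quasi-likelihood test the adjusted p of each was 0.767, so neither passed. Among all 15392 genes, 44 (0.286%) had this pattern with females higher and 46 (0.299%) with males higher.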

How the results depend on the processing

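Counts of genes depended on the test and on single mice. Genes with an adjusted p under 0.05 numbered 0 by edgeR's quasi-likelihood test in each comparison. By DESeq2 they numbered 4 over both sexes, 12 in females, 48 in males and 11 for the interaction. All 6 groups in 1 edgeR fit gave 1 over both sexes, and voom with quality weights gave 2915 in females and 2268 for the interaction. The cause was not tested. Leaving out 1 mouse gave 0 to 4 in females and 0 to 3 for the interaction, in both cases with the highest number without female oil mouse 5. The 4 female genes were then at -14.8, -13.1, 12.0 and 11.9, too large to read as sizes.

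At an unadjusted p under 0.05, 433 genes over both sexes became 673 by DESeq2, 1035 by voom, and 641 with GC and length offsets, then 382 higher and 259 lower. Leaving out 1 mouse gave 236 (without female Corexit 9500 mouse 9) to 1028 (without female oil mouse 5), with 252 without female oil mouse 4, 246 without male oil mouse 5 and 664 without male oil mouse 6. In females the 615 genes became 5705 by voom and 245 (without Corexit 9500 mouse 9) to 2191 (without oil mouse 5), with 266 without oil mouse 4 and 353 without oil mouse 6. The 667 in males stayed between 554 and 892. The 854 for the interaction became 5259 by voom and 403 (without male oil mouse 6) to 3152 (without female oil mouse 5), with 471 without male oil mouse 4 and, without male Corexit 9500 mice 7 and 9 in turn, 556 and 412.

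Sprr1a, Cldn4, Apod and Cxcl9 kept their direction in each alternative that gave a value, at 3.49 to 4.34, 1.12 to 1.44, -1.26 to -1.01 and -1.69 to -1.29 when 1 mouse was left out. List medians then ran from 0.65 to 0.90 for airway epithelial injury with Psca, -0.32 to -0.26 for interferon-induced, 0.26 to 0.60 for mitosis and -0.60 to -0.06 for neutrophil genes, the last without male oil mouse 6. Some values became smaller by over 1.5 times in the same direction. With GC and length offsets Krt19 was at 0.41, Nnat at 0.31, Rin1 at 0.48, Il1a at -0.48, Pmaip1 at -0.15 and Muc1 at 0.12. By voom Hbegf was at 0.25, Plaur at 0.19, Lgals3 at 0.25, Map3k9 at 0.27, Ccdc67 at -0.60, Stx19 at -0.31, Ddx19b at -0.12, Cdc20 at 0.61, Gins2 at 0.35, Mmp14 at 0.42, Mmp12 at 0.37, Chil3 at 0.10, Retnla at 0.37, Nqo1 at 0.13 and Ltf at -0.39. All 6 groups in 1 fit put Muc5ac at 0.11. The cause was not tested. Directions turned by voom for Tnf (-0.11), Cxcl1 (-0.052), Cyp1b1 (0.15) and Tiparp (0.00067), and with GC offsets for Mrc1 (0.068) and Krt5 (-0.14), the latter also without the sex term (-0.10). With 1 mouse left out, Tnf ran from -0.047 to 0.31 (below 0 without female oil mouse 6 and without female Corexit 9500 mouse 9), Cyp1b1 from -0.33 to 0.061 (above 0 without female oil mouse 6), Cdkn1a from -0.030 to 0.36 (below 0 without female oil mouse 4) and Krt5 from -0.054 to 0.54 (below 0 without male oil mouse 4, male oil mouse 6 and male Corexit 9500 mouse 9). None of these genes had an unadjusted p under 0.05 over both sexes. The mitochondrial share, -1.87 percentage points over 12 mice, was 0.54 without female oil mouse 6. No paired analysis was possible because the compared groups share no mouse number in the labels.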
